A study of Mus musculus with 10 samples.

Results

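Among the genes counted in failing mouse hearts, 99 carried only a provisional name and still reached 300 or more raw counts in each of the 10 mice. Their symbols were a Gm number, which marks a gene model predicted by annotation, or a RIKEN clone code ending in Rik. Members were chosen by symbol and by these raw counts, out of 57185 genes with counts, of which 31356 had such a symbol and 7858 reached the minimum. The fold between genotypes took no part in the choice. There were 52 Gm and 47 Rik genes. GENCODE classed 40 of them as protein coding, 40 as long noncoding RNA (lncRNA), 8 as processed pseudogenes, 9 as unprocessed pseudogenes and 2 as TEC, a class for transcripts that await experimental proof.

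Apical ventricle (left ventricle in the labels) was sampled from 5 MLPKO and 5 cRADΔ/Δ-MLPKO male mice (MLPKO and MLPKO-cRADKO in the labels), with 1 polyA-selected library per mouse. All 10 mice lacked muscle LIM protein, the product of Csrp3, a loss that causes dilated cardiomyopathy, and all carried floxed Rrad, the gene for RAD, an inhibitor of the L-type calcium channel. All were given 1 intraperitoneal dose of tamoxifen, 100 mg per kg, at 10 weeks of age. MYH6-MerCreMer, a recombinase driven by a cardiomyocyte promoter, was present only in cRADΔ/Δ-MLPKO, so effects of the recombinase and of the loss of RAD cannot be told apart. The labels give 16 weeks of age and 1 month after tamoxifen. The mice of the 2 genotypes were different animals, and the p-values measure the spread between these mice. The comparison asks what differed with loss of RAD in cardiomyocytes, together with the recombinase, in a heart that already had cardiomyopathy.

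Total counts lay between 33457406 and 49965101 per library, and the members together took 0.420 to 0.507% of them. Rrad had normalized counts of 10844, 11106, 5775, 6741 and 11655 in MLPKO and of 8117, 5570, 8368, 6030 and 7253 in cRADΔ/Δ-MLPKO. The groups overlapped (log2 fold change −0.38, SE 0.20, edgeR adjusted p = 0.30), and a count over the whole gene in mixed tissue cannot check the deletion, so genotypes are used as labelled. Csrp3, disrupted in both groups, still had a raw count of 25287 or more in every library. Its log2 fold change was −1.08 (SE 0.29, edgeR adjusted p = 0.0707, DESeq2 adjusted p = 0.0385). Cardiomyocyte markers were high in all mice, but their summed normalized count was lower in cRADΔ/Δ-MLPKO (1980000 to 2435000) than in MLPKO (2517000 to 2946000). Much of this sum was Myh6, with a mean of 1510000 in MLPKO and 1235000 in cRADΔ/Δ-MLPKO. Of the 7, 6 had a lower estimate and 1 (Tnni3, log2 fold change 0.12) a higher one. EdgeR called 1 and DESeq2 2. Endothelial markers summed to 44520 to 50690 against 36410 to 41780, with 0 of 5 called by edgeR and 3 by DESeq2. Macrophage markers summed to 4591 to 8138 against 3779 to 5205, with 0 of 6 called by edgeR and 3 by DESeq2. Smooth muscle and pericyte markers summed to 22150 to 27760 against 17850 to 21920. Most of this sum was Rgs5, with a mean of 18480 in cRADΔ/Δ-MLPKO and 13640 in MLPKO. Of the 5 markers, 2 had a higher and 2 a lower estimate, and both tools called 1, Rgs5. Adipocyte markers summed to 27.4 or less in every library but that of cRADΔ/Δ-MLPKO mouse 3, where Cfd was at 2522, Plin1 at 373 and Adipoq at 244. The part of these shifts in the results for the members was not tested. In whole tissue, fewer cells of a type and less RNA per cell cannot be told apart.

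Provisional names cover unlike genes. A Rik gene may encode a protein whose study has not yet given it a formal symbol, a lncRNA is a transcript with no evident reading frame, and a processed pseudogene is a copy of a messenger RNA that was inserted back into the genome. An unprocessed pseudogene is a copy of DNA, and stretches of mitochondrial DNA in the nuclear chromosomes are one kind. A copy that differs little from its parent shares its short reads, so that the count given to either depends on how such reads were assigned. Exon sequences of the members were therefore compared with all GENCODE M39 transcripts on GRCm39. An alignment of at least 95% identity over at least 80% of the exon bases, to a gene outside the locus, was found for 20 of 99 members. These were all 17 pseudogenes, 3 of the 40 lncRNAs and 0 of the 40 protein-coding members.

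The sequences below show how far copies could be separated, as the 60 bases of each alignment with most differences. They are written 5′ to 3′ on the gene's strand, and capitals mark bases that differ from the first sequence of a set. Mitochondrial mt-Co2, a subunit of cytochrome oxidase, comes first (chrM:7457-7516, plus strand). Gm28661 (chr1:24654143-24654202, minus strand) had 0 mismatches to it over 681 bases. Gm13341 (chr2:22477483-22477542, minus strand) had 16 over 684 aligned bases, of which 6 lie here.
mt-Co2: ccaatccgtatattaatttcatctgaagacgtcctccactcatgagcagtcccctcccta
Gm28661: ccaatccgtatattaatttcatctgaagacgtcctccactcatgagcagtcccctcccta
Gm13341: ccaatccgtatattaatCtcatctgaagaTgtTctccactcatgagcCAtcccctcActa

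Gm28438 (chr1:24652141-24652200, minus strand) had 1 mismatch over 345 bases to mt-Nd3, a subunit of complex I (chrM:9459-9518, plus strand).
mt-Nd3: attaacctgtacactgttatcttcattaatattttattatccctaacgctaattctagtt
Gm28438: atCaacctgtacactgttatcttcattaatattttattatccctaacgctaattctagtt

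Gm7993 (chr5:96122877-96122936, plus strand) copies the coding sequence of Odc1, the rate-limiting enzyme of polyamine synthesis (chr12:17599452-17599511, plus strand). It had 50 mismatches over 1388 aligned bases, of which 6 lie here.
Odc1: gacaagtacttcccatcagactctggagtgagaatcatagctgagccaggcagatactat
Gm7993: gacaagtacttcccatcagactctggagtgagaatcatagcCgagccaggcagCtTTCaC

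Gm49708 (chr16:90139423-90139482, minus strand), the lncRNA with the smallest p, shares a stretch of exon with the members Gm50321 (chr19:9807203-9807262, minus strand) and Gm47547 (chr14:40782573-40782632, plus strand). Gm50321 had 29 mismatches over 2514 aligned bases and Gm47547 had 42 over 2513. The best match of Gm49708 was Gm53355, not a member, with 26 mismatches over 2513 bases (51.5% of its exon bases). Gm50321 and Gm47547 each had 10 other genes at 95% identity or more over at least 80% of their exon bases.
Gm49708: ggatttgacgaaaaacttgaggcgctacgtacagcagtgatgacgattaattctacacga
Gm50321: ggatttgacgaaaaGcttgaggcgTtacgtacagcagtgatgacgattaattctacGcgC
Gm47547: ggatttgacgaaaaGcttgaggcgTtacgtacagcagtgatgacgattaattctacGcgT

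Between the genotypes, edgeR called 4 of the 99 members at an adjusted p under 0.05 (4.04%), against 2.27% of the 15232 genes tested and 3.23% of the 7858 genes that reached the count minimum. Of these, 3 were lower in cRADΔ/Δ-MLPKO (Gm49708, 3425401B19Rik and E230013L22Rik) and 1 was higher (Gm36827). An unadjusted p under 0.05 was found for 24 members (24.2%), 15 lower and 9 higher, against 20.5% of all genes and 25% (1961) of the 7858 that reached the minimum. Normalized counts did not overlap between genotypes for 4 members (4.04%), against 6.16% of all genes. These 4 were Gm49708, 3425401B19Rik, E230013L22Rik and 5031439G07Rik, all lower in cRADΔ/Δ-MLPKO. The median log2 fold change was −0.05 over the members, 0.01 over all genes tested and −0.02 over the 7858. Below 0 lay 58 of 99 members (58.6%) and 48.1% of all genes, while the median of the 7858 was itself below 0. DESeq2 called 11 members (11.1%) and 9.2% of the genes with an adjusted p. For the 7858, the shares below 0, without overlap and called by DESeq2 were not counted.

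**Figure D1:**
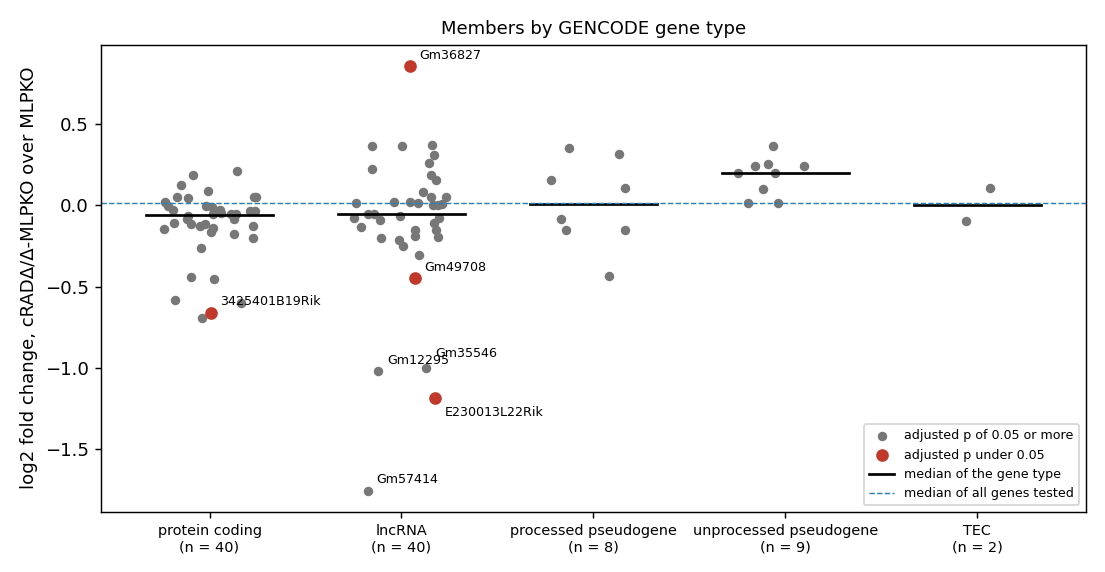
Log2 fold change (cRADΔ/Δ-MLPKO over MLPKO) of the 99 members by gene type, 1 point per gene. Large red points mark the 4 members called by edgeR, bars the median of a type and the dashed line the median of all genes tested (0.01). All 9 unprocessed pseudogenes lie above 0, and 31 of 40 protein-coding members lie below it.

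3425401B19Rik is the protein-coding member with the smallest p. RefSeq also lists it as Cefip, a protein of the muscle Z-disc that binds FHL2 and has been linked to calcineurin signalling. It lies at chr14:32375823-32430079 on the minus strand. Normalized counts were 15859, 17053, 12575, 12282 and 16070 in MLPKO and 9953, 8204, 8536, 10293 and 9728 in cRADΔ/Δ-MLPKO. Every cRADΔ/Δ-MLPKO mouse was below every MLPKO mouse. Means were 14770 ± 2185 and 9343 ± 918 (SD, n = 5), a log2 fold change of −0.66 (SE 0.11, edgeR adjusted p = 0.0155). The call held whichever of the 10 mice was omitted. The antisense lncRNA Gm28651 overlaps it and had an estimate of the other sign. The log2 fold change of Gm28651 was 0.70 (SE 0.21, edgeR adjusted p = 0.0880, DESeq2 adjusted p = 0.0196). The fall of 3425401B19Rik had the same direction as the cardiomyocyte markers, whose median log2 fold change was −0.26.

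The other 39 protein-coding members did not pass edgeR's test, and DESeq2 called 3 of them, 5031439G07Rik, 2310022A10Rik and D630003M21Rik (adjusted p of 0.0451, 0.0395 and 0.0330). Of the 40, 8 had an unadjusted p under 0.05 (20%, against 20.5% of all genes and 25% of the 7858 that reached the minimum). All 8 were lower in cRADΔ/Δ-MLPKO, and the median log2 fold change of the 40 was −0.06. 5031439G07Rik, the mouse counterpart of KIAA0930, had counts of 3211, 3253, 3079, 3030 and 3277 in MLPKO and 2871, 2857, 2990, 2897 and 2888 in cRADΔ/Δ-MLPKO. The genotypes did not overlap, yet the difference was small (log2 fold change −0.13, SE 0.05, edgeR adjusted p = 0.15). 2310022A10Rik, second by p, was at 2961, 3149, 3004, 2784 and 3069 in MLPKO and at 2286, 2828, 2631, 2617 and 2628 in cRADΔ/Δ-MLPKO. Its groups overlapped only in that MLPKO mouse 4 lay below cRADΔ/Δ-MLPKO mouse 2 (log2 fold change −0.20, SE 0.06, edgeR adjusted p = 0.10).

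Highest per length among the protein-coding members were 2310022B05Rik at 34.2 CPM per kb of exon, 2310061I04Rik at 25.2 and 3425401B19Rik at 23.7, against a median of 5.88 for the type. 2310022B05Rik had a log2 fold change of −0.26 (SE 0.10, edgeR adjusted p = 0.17) and 2310061I04Rik of 0.19 (SE 0.10, adjusted p = 0.34). D630003M21Rik had counts of 731 to 855 in MLPKO. In cRADΔ/Δ-MLPKO it had 739 and 700 in mice 1 and 2 and 368, 368 and 493 in mice 3, 4 and 5 (log2 fold change −0.58, SE 0.19, edgeR adjusted p = 0.11). Mouse 1 thus lay within the MLPKO range and mouse 2 just below it, and mice 3, 4 and 5 were further below. 1600014C10Rik, the counterpart of the mitochondrial membrane protein C19orf12, was at 1879 ± 228 in MLPKO and 1732 ± 52.5 in cRADΔ/Δ-MLPKO (SD, n = 5; log2 fold change −0.12, edgeR adjusted p = 0.45). Gm57852 shares 3637 exon bases with Zftraf1 on the same strand, so its count (log2 fold change −0.03, adjusted p = 0.83) cannot be separated from that gene.

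Among the 40 lncRNAs, edgeR called 3 and DESeq2 called these and Gm12295. Gm49708 was the highest of the 3, at 26.1 CPM per kb of exon, and lies at chr16:90137122-90146590 on the minus strand with no coding gene over it. Its counts were 5694, 5343, 6392, 6495 and 6651 in MLPKO and 4404, 4530, 4231, 4615 and 4599 in cRADΔ/Δ-MLPKO. The groups did not overlap, and the cRADΔ/Δ-MLPKO mice were close to each other (6115 ± 566 and 4476 ± 160, SD, n = 5; log2 fold change −0.45, SE 0.07, edgeR adjusted p = 0.0144). Omitting any 1 of the 10 mice left it called. How reads from the exon stretch that Gm49708 shares with other genes were counted is not given in the sources used here. Its count thus cannot be taken as unique to this locus.

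The related members gave other values. Gm50321 had counts of 1814, 869, 2247, 2856 and 1816 in MLPKO and of 1554 to 2055 in cRADΔ/Δ-MLPKO (log2 fold change −0.08, SE 0.23, edgeR adjusted p = 0.89). Gm47547 had 1011, 398, 1114, 1363 and 890 in MLPKO and 663 to 987 in cRADΔ/Δ-MLPKO (log2 fold change −0.20, SE 0.25, edgeR adjusted p = 0.71). In all 3 of these members MLPKO mouse 2 was the lowest of the MLPKO mice. For Gm50321 and Gm47547 it was also the lowest of all 10, whereas for Gm49708 it was still above every cRADΔ/Δ-MLPKO mouse.

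E230013L22Rik (chr8:11526995-11530879, plus strand) overlaps the start of Rab20, which is read from the opposite strand (chr8:11503392-11528710) and encodes a small GTPase of endosomal traffic. Counts of E230013L22Rik were 813, 991, 788, 626 and 1383 in MLPKO and 500, 324, 346, 387 and 470 in cRADΔ/Δ-MLPKO. The groups did not overlap (920 ± 289 and 405 ± 76.8, SD, n = 5), with a log2 fold change of −1.18 (SE 0.20, edgeR adjusted p = 0.0181). Rab20 had counts of 743, 809, 649, 662 and 790 in MLPKO and 565, 508, 536, 524 and 455 in cRADΔ/Δ-MLPKO. It too did not overlap and was called (log2 fold change −0.50, SE 0.09, edgeR adjusted p = 0.0194).

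The 2 genes share 845 exon bases of the 3187 of E230013L22Rik. The strand setting of the counting is not given in the sources used here, so reads from the shared bases cannot be told apart. Without cRADΔ/Δ-MLPKO mouse 4 the adjusted p was 0.0505 for each. Rab20 was also lost without MLPKO mouse 5 (adjusted p = 0.0564) or cRADΔ/Δ-MLPKO mouse 5 (adjusted p = 0.0624).

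Gm36827 (chr10:56808489-56858405, minus strand) was the only member called higher. Counts were 731, 506, 707, 1020 and 892 in MLPKO and 1016, 1184, 1595, 1474 and 1708 in cRADΔ/Δ-MLPKO. The groups touched, as MLPKO mouse 4 was just above cRADΔ/Δ-MLPKO mouse 1 (771 ± 195 and 1395 ± 288, SD, n = 5; log2 fold change 0.85, SE 0.18, edgeR adjusted p = 0.0364). It was called in only 3 of the 10 fits without 1 mouse, those without MLPKO mouse 2, MLPKO mouse 4 or cRADΔ/Δ-MLPKO mouse 1. In the other 7 the adjusted p lay between 0.0561 and 0.0955 and the log2 fold change between 0.78 and 0.91.

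**Figure D2:**
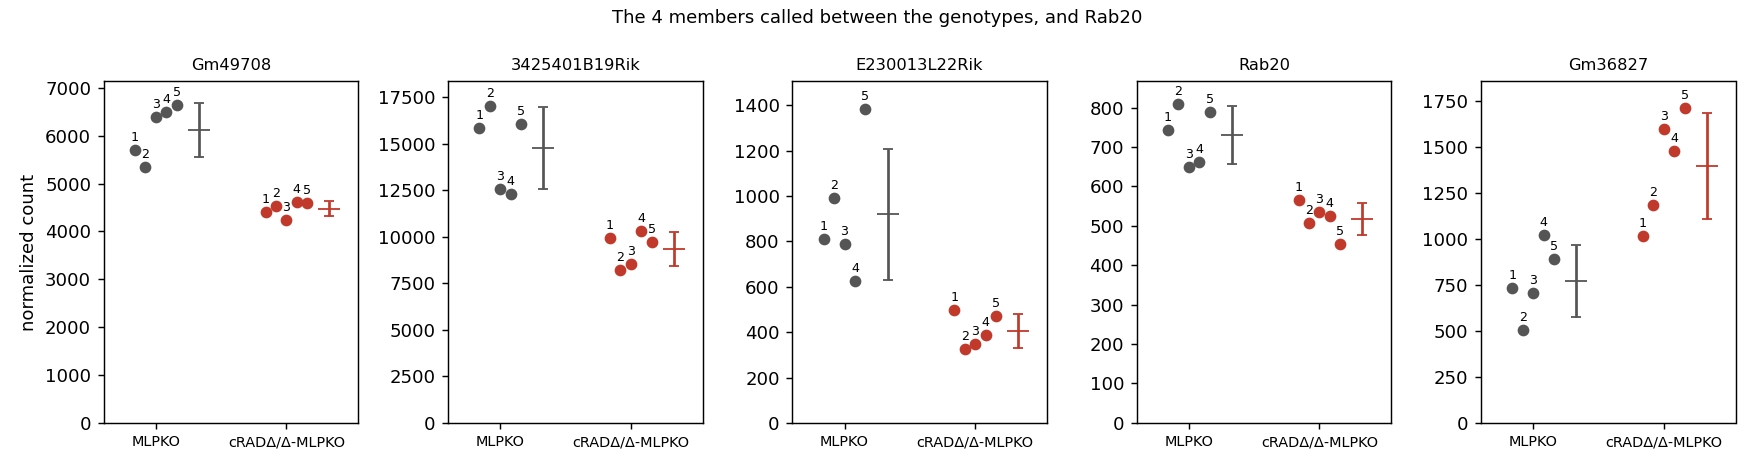
Normalized count per mouse (y axis from 0) of the 4 called members and of Rab20, which overlaps E230013L22Rik. Numbers are mouse numbers, and bars give the mean and SD of 5 mice. The genotypes are separate for Gm49708, 3425401B19Rik, E230013L22Rik and Rab20 and touch for Gm36827 (1020 against 1016).

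Neighbours were read for all members. Of the 40 lncRNAs, 17 overlapped a protein-coding gene on the opposite strand and 2 on the same strand, 4 had a divergent coding partner within 2000 bases, and 17 had neither. Of the 40 protein-coding members, 13 overlapped another coding gene on the opposite strand. Some exon bases were shared with another counted gene by 50 of the 99 members. In the 38 pairs of a member and a coding neighbour with over 100 mean counts, edgeR called 1 neighbour, Rab20, and DESeq2 called 4 (Rab20, Dhx32, Atp6ap2 and Dhx16). Over all genes, edgeR called 2.27% and DESeq2 9.2%.

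Gm35546 lies opposite to Tgfb2, a ligand of the TGF-beta pathway. It had counts of 1195, 4072, 796, 705 and 1307 in MLPKO and 1238, 846, 641, 687 and 612 in cRADΔ/Δ-MLPKO (log2 fold change −1.002, SE 0.43, edgeR adjusted p = 0.22). Tgfb2 had 1518, 7529, 1309, 870 and 3502 in MLPKO and 1385, 1861, 866, 947 and 869 in cRADΔ/Δ-MLPKO (log2 fold change −1.31, SE 0.52, edgeR adjusted p = 0.17). MLPKO mouse 2 was the highest of all 10 for both genes, and without it the log2 fold changes were −0.32 for Gm35546 and −0.60 for Tgfb2.

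Gm12295 lies over Myocd, the gene for the transcriptional coactivator myocardin, on the same strand and with 0 exon bases in common. Its counts were 1470, 3079, 1028, 956 and 1545 in MLPKO and 1004, 1029, 505, 652 and 790 in cRADΔ/Δ-MLPKO (log2 fold change −1.02, SE 0.31, edgeR adjusted p = 0.0920). Myocd was at 1822 to 2351 in MLPKO and 1616 to 2118 in cRADΔ/Δ-MLPKO (log2 fold change −0.08, adjusted p = 0.68). MLPKO mouse 2 was the highest for Gm12295 and not for Myocd, and without it Gm12295 had a log2 fold change of −0.65.

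In 22 of the 38 pairs the estimates had the same sign. Among the others, Gm45670, inside Dhx32 on the other strand, had 1391 ± 305 in MLPKO and 1792 ± 157 in cRADΔ/Δ-MLPKO (SD, n = 5; log2 fold change 0.36, edgeR adjusted p = 0.15), and Dhx32, a helicase gene, had a log2 fold change of −0.33 (edgeR adjusted p = 0.10, DESeq2 adjusted p = 0.0390). Gm20544 starts 81 bases from Smad7, the gene for an inhibitory Smad, and is read away from it. Its log2 fold change was 0.31 (edgeR adjusted p = 0.12) and that of Smad7 was −0.23 (adjusted p = 0.54). No test of these pairs was made.

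A further 4 lncRNAs did not pass either test. D830005E20Rik, opposite to Trdn (triadin, of the calcium release complex), had a log2 fold change of −0.07 (adjusted p = 0.83), and Gm9899, opposite to Kcnk3 (a potassium channel), had 0.26 (adjusted p = 0.28). Gm29237, the highest lncRNA per length at 26.1 CPM per kb and opposite to the spectrin gene Sptbn1, was at 530 ± 62.1 in MLPKO and 444 ± 57.5 in cRADΔ/Δ-MLPKO (SD, n = 5; edgeR adjusted p = 0.21). Gm56862, which has no coding partner, stood at 25.6 CPM per kb, with counts of 588 ± 44.5 and 551 ± 63.2 (adjusted p = 0.61).

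**Figure D3:**
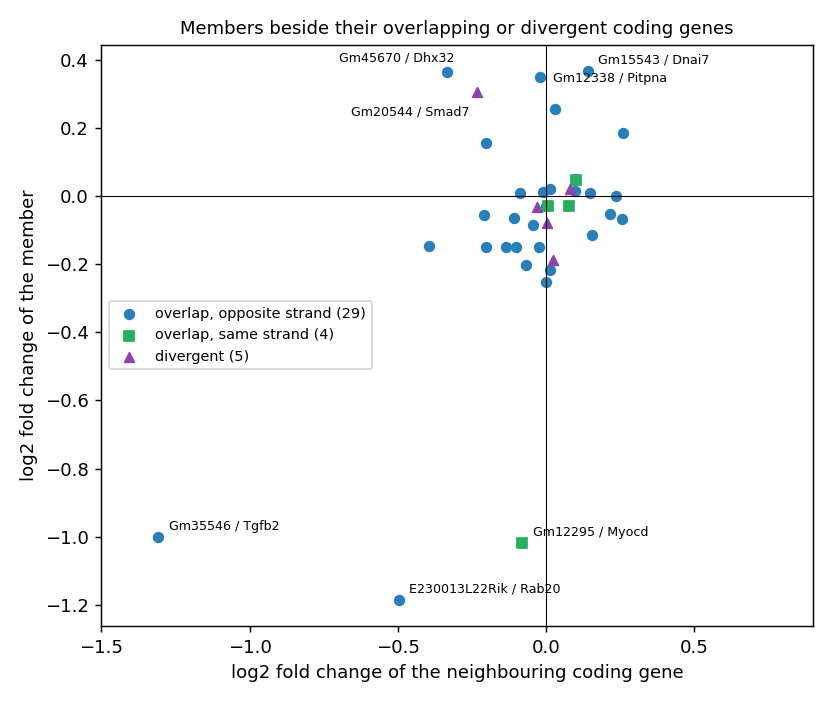
Log2 fold change (cRADΔ/Δ-MLPKO over MLPKO) of a member (y axis) against that of its overlapping or divergent protein-coding gene (x axis), for 38 pairs. Circles are overlaps on opposite strands (29), squares on the same strand (4) and triangles divergent pairs (5). Gm12295 lies at −1.02 with Myocd at −0.08, while Gm35546 with Tgfb2 and E230013L22Rik with Rab20 lie low on both axes.

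The 17 pseudogenes were compared with the gene that each copies. Of these, 10 are copies of mitochondrial DNA, of which 7 were on the list of such copies written for this work and 3 (Gm10222, Gm13339 and Gm4076) were added after their sequence match was seen. A group of 6 lie side by side at chr1:24650616-24655278 and match bases 6390 to 11042 of the mitochondrial chromosome at 99.7 to 100% identity (Gm29216, Gm28661, Gm28437, Gm28438, Gm10222 and Gm28439). Another 3 lie at chr2:22477303-22480545 at 95.9 to 97.6% identity (Gm13341, Gm13340 and Gm13339), and Gm4076 on chromosome 13 is at 95.2%, annotated as processed. The highest levels of all members were among these copies, with Gm28661 at 349 CPM per kb, Gm13340 at 318 and Gm29216 at 292. Others were lower, down to Gm4076 at 17.3, while Gm14303, not a mitochondrial copy, stood at 92.3.

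The mitochondrial genes covered by the chromosome 1 copy were counted far below the rest. The 6 coding genes wholly inside its range (mt-Co2, mt-Atp8, mt-Atp6, mt-Co3, mt-Nd3 and mt-Nd4l) stood at 37.7 to 339 CPM per kb. The 5 coding genes wholly outside it, such as mt-Cytb and mt-Nd1, stood at 10300 to 27810, and the 2 partly inside, mt-Nd4 and mt-Co1, at 13240 and 50000. Gm28661 was accordingly counted at 88.2 to 132% of mt-Co2, and Gm28437 at 62.5 to 83.4% of mt-Co3. Gm29216, by contrast, was at 0.147 to 0.209% of mt-Co1, of which it copies only one end. How reads that match 2 places equally well were counted is not given in the sources used here, so these levels are uncertain for copies and parents alike.

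All 10 mitochondrial copies had an estimate above 0, with a median log2 fold change of 0.20, and 0 of 10 passed edgeR's test (4 with an unadjusted p under 0.05, and 1, Gm29216, by DESeq2). Over all genes tested, 7900 of 15232 had an estimate above 0. The 6 copies on chromosome 1 had a median of 0.24 and the 3 on chromosome 2 of 0.01. Copies that lie side by side are not separate observations. Gm13341, Gm13339 and Gm4076 turned below 0 in at least 1 of the fits without 1 mouse. Gm29216 had counts of 4360, 4835, 5188, 6374 and 5416 in MLPKO and 6655, 5293, 6999, 7474 and 7233 in cRADΔ/Δ-MLPKO (log2 fold change 0.36, SE 0.11, edgeR adjusted p = 0.0979). The groups overlapped through cRADΔ/Δ-MLPKO mouse 2. Gm28661 had a log2 fold change of 0.24 (SE 0.10, adjusted p = 0.19) and Gm10222 of 0.25 (SE 0.09, adjusted p = 0.14). The mitochondrially encoded genes themselves took 15.8 to 21.2% of all counts in MLPKO and 21.4 to 22.6% in cRADΔ/Δ-MLPKO. Of the 15, 14 had an estimate above 0 (median log2 fold change 0.14) and edgeR called 0, with 5 at an unadjusted p under 0.05. DESeq2 called 5 (mt-Rnr1, mt-Rnr2, mt-Nd1, mt-Nd2 and mt-Co1).

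Mice 1 and 2 of cRADΔ/Δ-MLPKO differed from mice 3, 4 and 5 in several copies, in both directions. Gm13340 had 15890 and 16078 in mice 1 and 2 and 24081, 27457 and 25670 in mice 3, 4 and 5, while MLPKO mice ranged from 15520 to 22594. As a share of mt-Co1 it was 0.464 and 0.447% in mice 1 and 2 against 0.71 to 0.759% in the other 3. Gm13339 stood at 0.0576 and 0.0535% of mt-Nd2 in mice 1 and 2 and at 0.112 to 0.115% in mice 3 to 5, with MLPKO at 0.102 to 0.120%.

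Other copies were higher against their parents in the same 2 mice. Gm10222 was at 75.9 and 64.4% of mt-Nd4l in mice 1 and 2 and at 46.1 to 46.7% in mice 3 to 5. Gm28438 was at 29.7 and 28.9% of mt-Nd3 against 16.8 to 18.2%, and Gm2830, a copy of the ribosomal protein gene Rps24, at 10.6 and 10.4% of its parent against 6.72 to 7.32%. Some mitochondrially encoded genes were also apart in these mice. mt-Nd3 had 2815 and 2241 in mice 1 and 2 against 4004 to 5058 in mice 3 to 5, and mt-Atp8 had 130 and 140 against 394 to 433.

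Gm14303, a copy of the ribosomal protein gene Rps29, was at 14.0 and 14.3% of its parent in mice 1 and 2, at 24.5 to 34.9% in mice 3 to 5 and at 23.1 to 32.2% in MLPKO. Its own counts in mice 1 and 2 (585 and 580) lay within the MLPKO range (519 to 806). Rps29 had 4191 and 4051 in these mice, above every MLPKO mouse (1873 to 3495). The labels name no batch that separates these mice, and the cause was not tested.

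The ratio of copy to parent was tested between the genotypes for all 17 pseudogenes by a two-sided exact permutation test, whose smallest possible p is 0.00794. Groups overlapped in 17 of 17, and 0 had an adjusted p under 0.05 (smallest 0.54, adjusted over the 17). A single ratio at the smallest possible p would not have passed this adjustment. The count of 0 therefore cannot show that the ratios were equal between genotypes. An unadjusted p was under 0.05 for 1. This was Gm3375, a copy of the proteasome gene Psmb5, at 168 ± 18.4% of its parent in MLPKO and 138 ± 14.7% in cRADΔ/Δ-MLPKO (SD, n = 5; exact permutation p = 0.0317).

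Gm7993, the Odc1 copy, had counts of 782, 1006, 661, 593 and 784 in MLPKO and 577, 570, 601, 544 and 534 in cRADΔ/Δ-MLPKO (log2 fold change −0.44, SE 0.12, edgeR adjusted p = 0.0754). Only MLPKO mouse 4 fell within the range of the other genotype. Odc1 itself was at 2092 to 3269 in MLPKO and 1835 to 1991 in cRADΔ/Δ-MLPKO, without overlap. Its log2 fold change was −0.40 (SE 0.11, edgeR adjusted p = 0.0713, DESeq2 adjusted p = 0.0139). The copy was counted at 27.3 to 31.5% of Odc1 in all 10 mice.

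Gm12338 is identical to 192 bases of Cox7c, a subunit of cytochrome oxidase, and overlaps Pitpna on the opposite strand. It was at 475, 468, 529, 622 and 627 in MLPKO and 779, 660, 702, 730 and 597 in cRADΔ/Δ-MLPKO (log2 fold change 0.35, SE 0.11, edgeR adjusted p = 0.0941). Cox7c had a log2 fold change of 0.33 (SE 0.12, adjusted p = 0.14). The groups overlapped through cRADΔ/Δ-MLPKO mouse 5. Both Gm7993 and Gm12338 were called by DESeq2 (adjusted p of 0.0167 and 0.0410). The highest processed pseudogene per length was Gm14303 at 92.3 CPM per kb, with a log2 fold change of 0.15 (SE 0.14, edgeR adjusted p = 0.57).

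**Figure D4:**
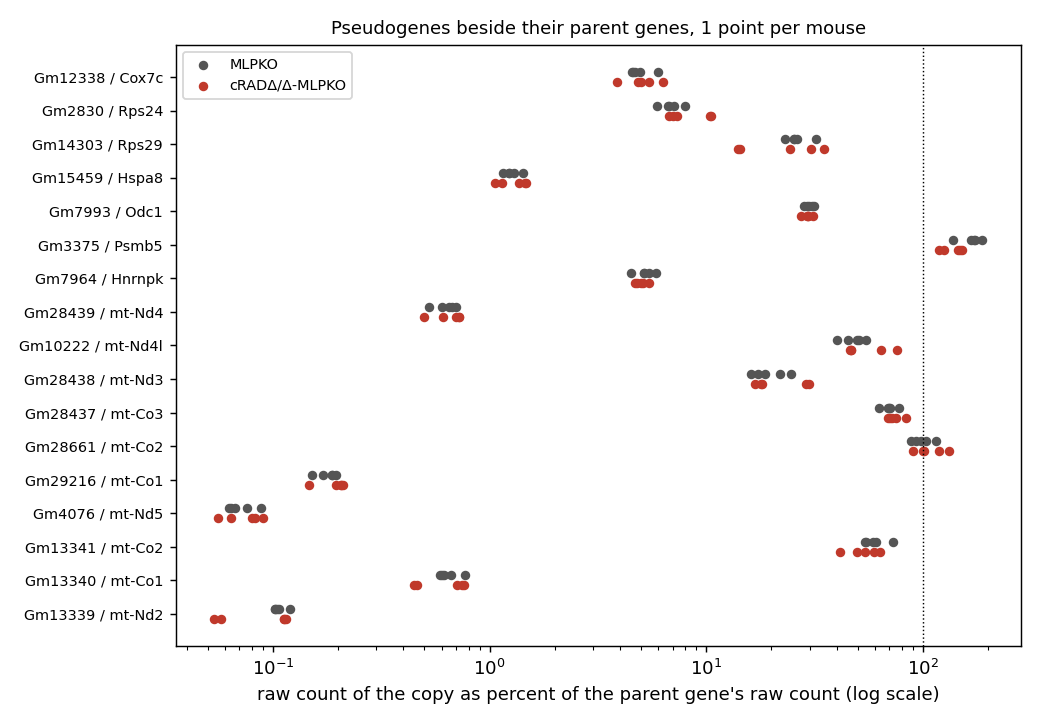
Raw count of each of the 17 pseudogenes as a percent of its parent gene's raw count (log scale), 1 point per mouse. Genotypes overlapped for all 17. Gm7993 lay within 27.3 to 31.5% of Odc1, while 2 cRADΔ/Δ-MLPKO mice lie below the other 3 for Gm13340, Gm13339 and Gm14303 and above them for Gm10222, Gm28438 and Gm2830.

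Spread between mice was wider in MLPKO than in cRADΔ/Δ-MLPKO for 63 of 99 members, with a median coefficient of variation of 12.4% and 10.5%. Over all 7858 genes with the same minimum these were 9.13% and 7.49%. MLPKO mouse 2 was the highest of all 10 mice in 19 of the 99 members and in 19.3% of all genes tested, and the lowest in 23 members and in 20% of all genes. The mouse with adipocyte RNA, cRADΔ/Δ-MLPKO mouse 3, was the lowest in 23 members and in 12.2% of all genes, and the part of that RNA in these values was not tested. MLPKO mouse 2 also had the highest Nppa (101032, against 4378 to 73808 in the other MLPKO mice), which encodes a natriuretic peptide that rises with wall stress.

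1110002E22Rik, a protein-coding member, had counts of 8993, 18650, 7379, 7243 and 12213 in MLPKO and 6168 to 8686 in cRADΔ/Δ-MLPKO (log2 fold change −0.60, SE 0.23, edgeR adjusted p = 0.17). 2310057M21Rik, listed by RefSeq also as PAAT, had 543, 1519, 594, 542 and 1039 in MLPKO and 435 to 572 in cRADΔ/Δ-MLPKO (log2 fold change −0.69, SE 0.27, edgeR adjusted p = 0.17). In both, MLPKO mice 2 and 5 were high and the other 3 lay at or near the other genotype. Without MLPKO mouse 2 the log2 fold changes were −0.32 for 1110002E22Rik and −0.38 for 2310057M21Rik. 2310002L09Rik had 4888 in MLPKO mouse 2 and 2516 to 2845 in the other 4, against 2016 to 2610 in cRADΔ/Δ-MLPKO (log2 fold change −0.44, SE 0.17, edgeR adjusted p = 0.16). Without that mouse its log2 fold change was −0.23.

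The largest estimate of all members rested on 1 mouse. Gm57414, a lncRNA of 1 exon (chr11:31495732-31499661, plus strand), had 1228, 1199, 1237, 19148 and 1627 in MLPKO and 1324, 1426, 1860, 1284 and 1357 in cRADΔ/Δ-MLPKO. Its log2 fold change was −1.75 (SE 0.77, edgeR adjusted p = 0.22). Without MLPKO mouse 4 it was 0.13 (adjusted p = 0.58).

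**Figure D5:**
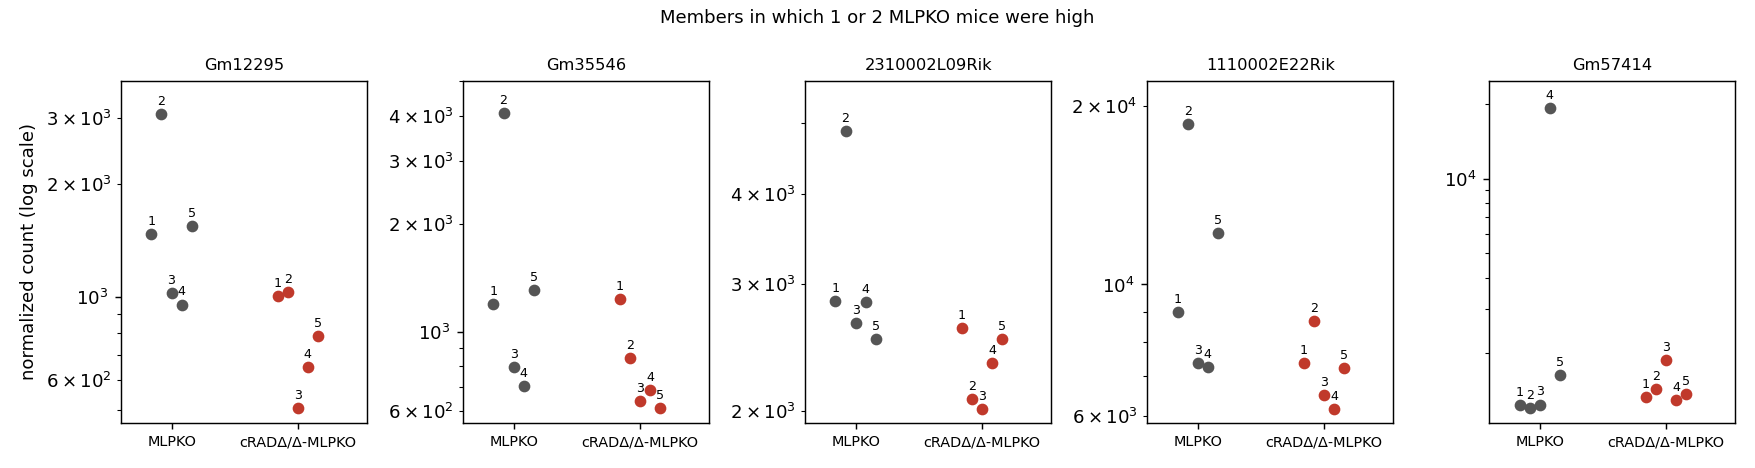
Normalized count per mouse (log axis) of 5 members in which 1 MLPKO mouse, or 2 for 1110002E22Rik, were high. Numbers are mouse numbers. MLPKO mouse 2 is highest for Gm12295, Gm35546, 2310002L09Rik and 1110002E22Rik, and MLPKO mouse 4 for Gm57414 (19148 against 1199 to 1860 in the other 9 mice).

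Both TEC members overlapped between genotypes. Gm37829, at 20.6 CPM per kb, had a log2 fold change of −0.10 (edgeR adjusted p = 0.69). It shares 1379 exon bases on the opposite strand with the lncRNA member 2900076A07Rik, whose own value was −0.20 (adjusted p = 0.52). 2900076A07Rik also holds Mir1839 and a small Cajal body RNA gene. Gm44250 had a log2 fold change of 0.10 (adjusted p = 0.42).

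Members nearest to the minimum were Gm47547, with a lowest raw count of 303, E230013L22Rik with 306, and Gm13375 and Gm56730 with 311. Just outside were 1700017B05Rik and Gm30455 with 294 and 4921524J17Rik with 292. Because every mouse had to reach 300, a gene that was low in 1 genotype, or in only 1 mouse, was left out. There were 23 genes with the minimum met in every mouse of 1 genotype only. Some of them hardly differed between genotypes, such as Gm14326 (log2 fold change −0.0018, edgeR adjusted p = 0.99). Of the 23, edgeR called 1, against 2.27% of all genes tested. This was the lncRNA Gm50100, with 483, 217, 518, 443 and 384 in MLPKO and 784, 757, 680, 853 and 834 in cRADΔ/Δ-MLPKO. The groups did not overlap (log2 fold change 0.93, SE 0.18, edgeR adjusted p = 0.0277), and the call was lost in 7 of the 10 fits without 1 mouse (adjusted p up to 0.0779). With a mean of 300 in place of the minimum there were 161 genes, of which 5 were called, 3 lower and 2 higher.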

How the data were processed

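A library was made from each of 10 mice. Alignment by the authors used STAR on GRCm39. The table they deposited holds whole-number counts for each gene from featureCounts, with no normalization. Settings for strand, read pairs and reads with several matches are not given in the sources used here. Between 1 and 20 counts, 73.7 to 80.3% of values were even. The study left Gm and Rik genes out of its own comparison. Names, types and places came from GENCODE M39 on GRCm39, which is newer than the table, and 3491 blank rows were left out.

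The 15232 genes above 10 counts in 6 or more mice were compared with edgeR 4.0.16 in R 4.3.3 (TMM, quasi-likelihood test, Benjamini-Hochberg adjustment over all genes tested). A normalized count is the count at the mean effective library size, and CPM per kb is per kb of merged exons. DESeq2 1.42.0 was an alternative, with other size factors, filters, dispersions, the mouse number as a block, and each mouse left out. The scripts were tested on simulated counts. Sequences were aligned with BLAST 2.17.0, and ratios were tested in scipy 1.17.1.

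Members and gene lists were chosen with earlier results of these data known. Genes named were those called, per type the 3 highest per length and the 2 with the smallest p, mitochondrial copies, genes around the count minimum, their neighbours or parents, Rrad and Csrp3. Others were named after their values were seen.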

Additional observations from a re-analysis of the deposited data

Results flagged for a closer look

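A sample that stood far from the other 4 of its group, by Dixon's test, was found in 6 of 84 groups of named members. Chance flags about 1 in 20 groups. Some of these members were named after their values were seen, so the 6 cannot be set against that rate. MLPKO mouse 2 was the highest for 2310002L09Rik (normalized count 4888, others 2516 to 2845), for Gm12295 (3079, others 956 to 1545) and for Gm35546 (4072, others 705 to 1307). MLPKO mouse 1 was the lowest for Gm10222 (617, others 746 to 785). Gm57414 was flagged in both genotypes, with 19150 in MLPKO mouse 4 (others 1199 to 1627) and 1860 in cRADΔ/Δ-MLPKO mouse 3 (others 1284 to 1426).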

How the results depend on the processing

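The number of members called was 4 under other size factors and filters, 3 with robust dispersions and 11 with DESeq2, and 2 to 8 when 1 mouse was left out (2 without cRADΔ/Δ-MLPKO mouse 4, 8 without MLPKO mouse 4). Over all genes the 346 calls became 1319 with DESeq2 and 54 to 815 without 1 mouse (54 without cRADΔ/Δ-MLPKO mouse 5, 815 without MLPKO mouse 4). The median log2 fold change of the members, −0.05, lay between −0.0537 and −0.022 without 1 mouse and was −0.0143 with a mean of 300 as the rule. The median of the 7 listed mitochondrial copies, 0.20, lay between 0.1448 and 0.2919 without 1 mouse. The cause of these shifts was not tested. 3425401B19Rik and Gm49708 were called under every setting run.

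With the mouse number as a replicate block, 5 members were called (Gm12295 was added, edgeR adjusted p = 0.0264), 291 of all genes, and the medians were −0.0349 and 0.1963. Equal numbers belonged to different animals, whose deviations correlated at −0.030 to 0.128, so the numbers were not taken as pairs. The block turned the sign of Gm13339 (−0.0285), Gm13341 (−0.0509), Gm15459 (0.0044) and Gm50321 (0.0063). Leaving out 1 mouse turned the sign of members near 0, with ranges of −0.0881 to 0.1477 (Gm13339), −0.1164 to 0.145 (Gm13341), −0.2219 to 0.1894 (Gm15459), −0.0561 to 0.0981 (Gm13375), −0.0136 to 0.195 (Gm4076) and −0.2621 to 0.1093 (Gm50321), and of Gm57414 (−1.9999 to 0.1341).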
